A study of Homo sapiens with 6 samples.

Results

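SIGLECs are sialic acid receptors of the immunoglobulin superfamily that sit on the surface of white blood cells. The family was measured here in THP1 cells, an established line grown from an acute myeloid leukaemia with monocytic features. Its members were taken as every probe set (the group of short probes that reports 1 transcript) that the platform annotation assigns to exactly 1 symbol among SIGLEC1, CD22, CD33, SIGLEC5, SIGLEC6, SIGLEC7, SIGLEC9, SIGLEC10 and SIGLEC11. That gave 18 of 54613 probe sets and 8 of 19775 genes. CD33, the myeloid SIGLEC, had 0 listed probe sets and was not analysed here. The cells were grown in RPMI medium with fetal calf serum, and for 48 hours before RNA was taken they stood on a surface with or without Dll4-Fc. Dll4-Fc is a fusion of the Notch ligand Dll4 to the Fc piece of an antibody. There were 3 arrays in the group the sample labels call untreated (the protocol calls the control vehicle) and 3 in the Dll4-Fc group. The sample labels give a Dll4-Fc dose of 60 nM and the protocol gives 30 nM, so the dose is not settled. The labels name no control coated with Fc alone, and all samples are of 1 cell line. Whether replicates were separate cultures is not said in the labels, so p-values measure only how these samples spread, and that spread may be technical.

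A SIGLEC binds sialic acid, the sugar that caps many glycans on cell surfaces, through the outermost domain of its extracellular part. Most members of the CD33-related group carry tyrosine motifs in their tails that recruit the phosphatases SHP-1 and SHP-2 and dampen activation of the cell. A few members instead pair with the activating adaptor DAP12, the product of TYROBP, and SIGLEC1 has neither and acts mainly in adhesion and capture of sialylated particles by macrophages. On monocytes and macrophages the members with such dampening motifs are known as brakes that recognise sialic acid on the body's own cells.

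Values are log2 of the deposited intensity. Over all probe sets, pairs of arrays correlated at 0.996 to 0.998 (r) within a group and at 0.984 to 0.988 between the groups. Differences are Dll4-Fc minus untreated, ± after a difference is its standard error (SE) and ± after a group mean is the SD, each with n = 3 arrays per group. A probe set is said to have risen or fallen where limma's test over all probe sets gave a Benjamini-Hochberg adjusted p under 0.05. Intensities of different probe sets are not on a common scale, so levels are not ranked between genes. The median of all probe sets, 5.70, serves only to mark dim ones. The Notch target check gave 2 rises among 5 genes in the gene-level test: HES1 (2.93 ± 0.20) and HES4 (1.47 ± 0.18). HEY1 (0.09), NRARP (-0.14) and DTX1 (-0.11) did not pass. Over all genes 11.6% rose. Without probe sets shared between transcripts 0 of 4 rose. HES4, whose only probe set is shared, was then not tested. HES1 was then read from another probe set, at 0.003 (limma adjusted p = 0.988). Of the 3 HES1 probe sets 2 rose.

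SIGLEC1 rose several-fold on Dll4-Fc on both of its probe sets. SIGLEC11 rose 3.85-fold on 1 probe set and 1.51-fold on the other, and SIGLEC5 rose 1.56-fold on its only one. SIGLEC7 and SIGLEC10 rose on 1 of their probe sets each, while CD22, SIGLEC6 and SIGLEC9 did not pass the test on any. Of the 18 probe sets 7 rose (38.9%) and 0 fell. Among all probe sets 7.21% rose and 9.26% fell. The median difference of the 18 was 0.16, against -0.02 over all probe sets. Of the 18 differences 15 were positive (83.3%), against 46.0% of all probe sets. The 18 probe sets report only 8 genes, so they are not 18 separate results. The groups did not overlap for 8 of the 18 (44.4%), against 33.2% of all probe sets. With 1 probe set per gene, the brightest, 4 of 8 genes rose and 0 fell, where 11.6% of all genes rose and 15% fell. The 4 include SIGLEC10, whose gene-level call held under 8 of 14 alternatives. They leave out SIGLEC7, whose brightest probe set did not pass. THP1 was measured in bulk, so a change in RNA per cell and a change in the share of cells that express a gene cannot be told apart.

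**Figure D1:**
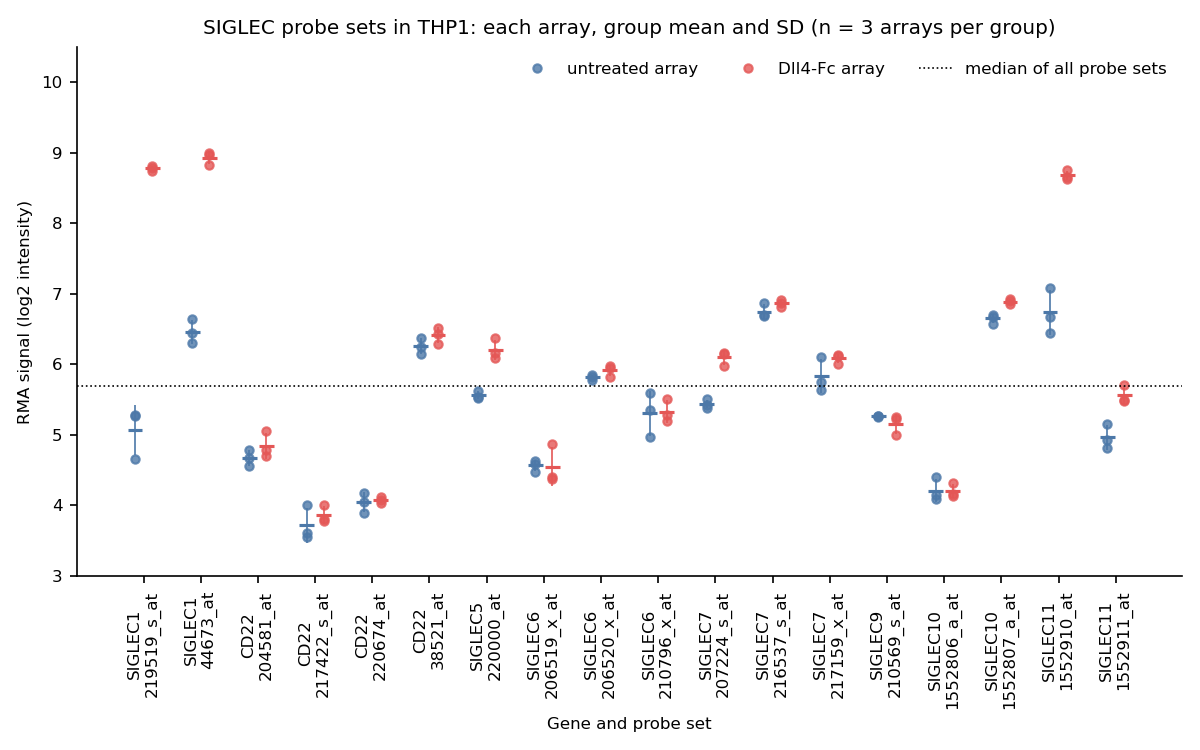
Log2 RMA signal of the 18 SIGLEC probe sets (horizontal axis) on each array, with the untreated arrays in blue and the Dll4-Fc arrays in red; horizontal bars are group means, vertical bars are SDs (n = 3) and the dotted line is the median of all probe sets, 5.70. Both SIGLEC1 probe sets and SIGLEC11 1552910_at lie above 8.6 on the 3 Dll4-Fc arrays and below 7.1 on the 3 untreated arrays.

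SIGLEC1 (CD169, sialoadhesin), the macrophage receptor for sialylated cells and particles, gave the largest rise of the family. Probe set 44673_at lay at 6.64, 6.30 and 6.44 in untreated replicates 1, 2 and 3, and at 8.82, 8.97 and 8.99 in the Dll4-Fc replicates. Probe set 219519_s_at lay at 5.26, 4.66 and 5.28 in untreated cells and at 8.82, 8.78 and 8.74 on Dll4-Fc. Every Dll4-Fc array was above every untreated one on both probe sets, and on both the lowest array was untreated replicate 2. For 44673_at the rise was 2.47 ± 0.10, or 5.53-fold (limma adjusted p = 2.4e-06, 95% confidence interval 2.24 to 2.70). For 219519_s_at it was 3.71 ± 0.16, or 13.1-fold (limma adjusted p = 3.12e-06, 95% confidence interval 3.35 to 4.07). The second probe set was below the median of all probe sets in untreated cells and its identifier marks it as shared between transcripts. The differences of 44673_at and 219519_s_at stood at the 99.6 and 99.9 percentiles of all probe sets.

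The genes whose 6-array pattern was most like that of SIGLEC1 44673_at were MAML2, a Notch coactivator (r = 0.999, difference 3.86 ± 0.15), IGFLR1, a receptor of the TNF receptor type (r = 0.999, 0.97 ± 0.06), and GM2A, the activator protein of lysosomal ganglioside breakdown (r = 0.999, 1.01 ± 0.06). With 2 groups of 3 arrays such a correlation mostly records the difference between groups, and any gene with a clean difference scores high.

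SIGLEC11, a CD33-related member with inhibitory tail motifs that is known from tissue macrophages and microglia, rose on both of its probe sets. Probe set 1552910_at lay at 6.68, 7.08 and 6.45 in untreated replicates 1, 2 and 3, and at 8.66, 8.63 and 8.76 on Dll4-Fc. It rose by 1.94 ± 0.15, or 3.85-fold (limma adjusted p = 8.5e-05). Probe set 1552911_at lay at 4.93, 4.81 and 5.15 in untreated cells and at 5.50, 5.71 and 5.48 on Dll4-Fc, a rise of 0.60 ± 0.11 or 1.51-fold (limma adjusted p = 0.00668). The groups did not overlap on either probe set. The mean of the second was below the median of all probe sets in both groups.

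SIGLEC16, which encodes the activating partner of SIGLEC11 and is not among the members, rose alongside it. Its only probe set, 1561880_a_at, lay at 5.97, 5.51 and 5.84 in untreated cells and at 7.92, 7.71 and 7.76 on Dll4-Fc. That is a rise of 2.02 ± 0.12, or 4.07-fold (limma adjusted p = 2.61e-05 over genes). SIGLEC11 and SIGLEC16 are neighbouring genes with long stretches of near-identical sequence, so how much of each rise belongs to which gene is uncertain.

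The promoters of these neighbours, and those of SIGLEC5 and its own partner SIGLEC14, are shown so that the likeness within each pair can be seen. They lie mostly outside the transcripts, and the probes and transcripts were not compared here. They are RefSeq sequences of build GRCh38.p14, from 250 bases before to 50 after the gene's start, written 5′ to 3′. The SIGLEC11 window is chr19:49961123-49961422, minus strand, and that of SIGLEC16 is chr19:49969414-49969713, plus strand. The SIGLEC5 window is chr19:51630352-51630651, minus strand, and that of SIGLEC14 is chr19:51646776-51647075, minus strand. Capitals mark TGGGAA, the core bound by the Notch-pathway factor RBPJ, or its reverse complement TTCCCA.
SIGLEC11: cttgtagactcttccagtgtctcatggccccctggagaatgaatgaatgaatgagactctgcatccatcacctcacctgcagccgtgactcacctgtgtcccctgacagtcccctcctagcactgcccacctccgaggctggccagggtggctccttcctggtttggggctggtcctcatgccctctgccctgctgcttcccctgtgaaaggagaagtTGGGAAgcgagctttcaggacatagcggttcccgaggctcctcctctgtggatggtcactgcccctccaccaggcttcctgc
SIGLEC16: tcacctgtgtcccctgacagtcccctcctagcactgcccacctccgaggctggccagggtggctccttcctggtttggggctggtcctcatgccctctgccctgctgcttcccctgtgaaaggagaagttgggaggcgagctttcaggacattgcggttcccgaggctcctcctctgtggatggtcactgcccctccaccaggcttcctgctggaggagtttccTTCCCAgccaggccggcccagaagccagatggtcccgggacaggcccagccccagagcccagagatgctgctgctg
SIGLEC5: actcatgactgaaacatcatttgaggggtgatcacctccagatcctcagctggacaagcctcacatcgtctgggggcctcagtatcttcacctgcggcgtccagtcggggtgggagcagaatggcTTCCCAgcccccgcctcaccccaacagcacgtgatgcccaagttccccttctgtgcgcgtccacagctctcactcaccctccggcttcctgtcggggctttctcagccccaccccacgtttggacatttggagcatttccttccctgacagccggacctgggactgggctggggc
SIGLEC14: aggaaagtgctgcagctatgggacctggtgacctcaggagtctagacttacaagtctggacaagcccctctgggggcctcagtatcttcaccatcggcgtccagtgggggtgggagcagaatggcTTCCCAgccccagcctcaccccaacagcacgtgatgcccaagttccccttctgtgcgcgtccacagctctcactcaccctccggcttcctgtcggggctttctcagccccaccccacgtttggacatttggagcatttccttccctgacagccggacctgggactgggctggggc
In a local alignment the windows of SIGLEC11 and SIGLEC16 shared 211 columns with 209 identical bases (99.1%). The differences, counted from 1 at the 5′ end of the printed SIGLEC11 sequence, are A224G and A242T. A224G changes the last base of the TGGGAA marked in SIGLEC11, so SIGLEC16 lacks that match. The TTCCCA marked in SIGLEC16 is another site, past the end of the shared stretch. SIGLEC5 and SIGLEC14 shared 251 columns with 240 identical (95.6%), while the best match between SIGLEC11 and SIGLEC5 covered only 26 columns.

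Promoter windows were found for 8 of the 9 members; SIGLEC1, the gene with the largest rise, was not searched. TGGGAA, searched on both strands, was in 24% of the 35116 windows of the whole table. Among the members it was present for SIGLEC5, SIGLEC9 and SIGLEC11 and in no window of CD22, CD33, SIGLEC6, SIGLEC7 or SIGLEC10. These are matches of letters within 300 bases, searched after the values were known.

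SIGLEC5, an inhibitory receptor of monocytes and neutrophils, has 1 probe set, 220000_at. It lay at 5.63, 5.54 and 5.52 in untreated replicates and at 6.16, 6.08 and 6.37 on Dll4-Fc. The groups did not overlap, and Dll4-Fc replicate 3 was the highest array. The rise was 0.64 ± 0.09, or 1.56-fold (limma adjusted p = 0.00184, 95% confidence interval 0.44 to 0.85). The untreated mean was below the median of all probe sets. SIGLEC14, the DAP12-coupled partner of SIGLEC5 with a near-identical ligand-binding part, had no listed probe set and was not analysed here, so a contribution of its transcript to 220000_at was not tested.

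SIGLEC7, an inhibitory receptor of natural killer cells that monocytes also carry, has 3 probe sets, which did not give the same call. Probe set 207224_s_at lay at 5.43, 5.50 and 5.39 in untreated cells and at 5.98, 6.15 and 6.16 on Dll4-Fc. It rose by 0.66 ± 0.08, or 1.58-fold (limma adjusted p = 0.000794), with no overlap between the groups. Probe set 216537_s_at, the brightest, was at 6.75 ± 0.10 and 6.87 ± 0.05 and did not pass (0.12 ± 0.07, limma adjusted p = 0.372). Probe set 217159_x_at was at 5.83 ± 0.24 and 6.09 ± 0.07 and did not pass (0.25 ± 0.12, limma adjusted p = 0.21); untreated replicate 3, at 6.10, lay among the Dll4-Fc arrays. Without that array it passed, at 0.39 (limma adjusted p = 0.0148), and so it did with array weights. All 3 probe sets have identifiers that mark them as shared between transcripts, and with the mean of the 3 the gene passed (0.34, limma adjusted p = 0.00626).

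SIGLEC10, an inhibitory receptor whose known partners include CD24 and CD52, gave the smallest call. Probe set 1552807_a_at lay at 6.70, 6.57 and 6.68 in untreated cells and at 6.90, 6.92 and 6.85 on Dll4-Fc, without overlap. The rise was 0.24 ± 0.07, or 1.18-fold (limma adjusted p = 0.0443). It held under 4 of 13 alternatives, with adjusted p from 0.0123 to 0.157. It was lost when any 1 of the 6 arrays was left out (adjusted p from 0.0574 to 0.157), with the replicate block (0.123), with median centring (0.0643) and when the prior was trended and robust (0.089). The other probe set, 1552806_a_at, was dim and lay at 4.21 ± 0.16 and 4.20 ± 0.10 (-0.01 ± 0.10, limma adjusted p = 0.968). With the mean of both probe sets the gene did not pass (0.12, limma adjusted p = 0.285).

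CD22, the inhibitory coreceptor of B cells, did not pass on any of its 4 probe sets. Probe set 38521_at, the brightest, ran from 6.15 to 6.38 in untreated cells and from 6.29 to 6.51 on Dll4-Fc, so the groups overlapped. Its difference was 0.15 ± 0.09 (limma adjusted p = 0.315, 95% confidence interval -0.05 to 0.36). The other 3 probe sets were below the median of all probe sets in both groups, with differences of 0.17, 0.15 and 0.04. Upper bounds of the 95% intervals for the 4 ran from 0.23 to 0.45, so a difference in signal of 1, which is 2-fold, lies outside them. For the 3 dim probe sets this does not show that the RNA was unchanged.

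SIGLEC6, known from placental trophoblast, mast cells and B cells, did not pass on any of 3 probe sets, with differences of -0.02, 0.10 and 0.02. The brightest, 206520_x_at, was at 5.82 ± 0.04 and 5.92 ± 0.08, with overlap (limma adjusted p = 0.418). The other 2 were below the median of all probe sets in both groups. SIGLEC9, an inhibitory receptor of neutrophils and monocytes, was dim on its only probe set, 210569_s_at, at 5.25, 5.27 and 5.27 in untreated cells and 5.25, 5.23 and 5.00 on Dll4-Fc. The groups did not overlap, by less than 0.01, but the difference of -0.11 ± 0.08 did not pass (limma adjusted p = 0.484, 95% confidence interval -0.30 to 0.08). For a dim probe set a missed threshold does not show that the gene was unchanged.

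**Figure D2:**
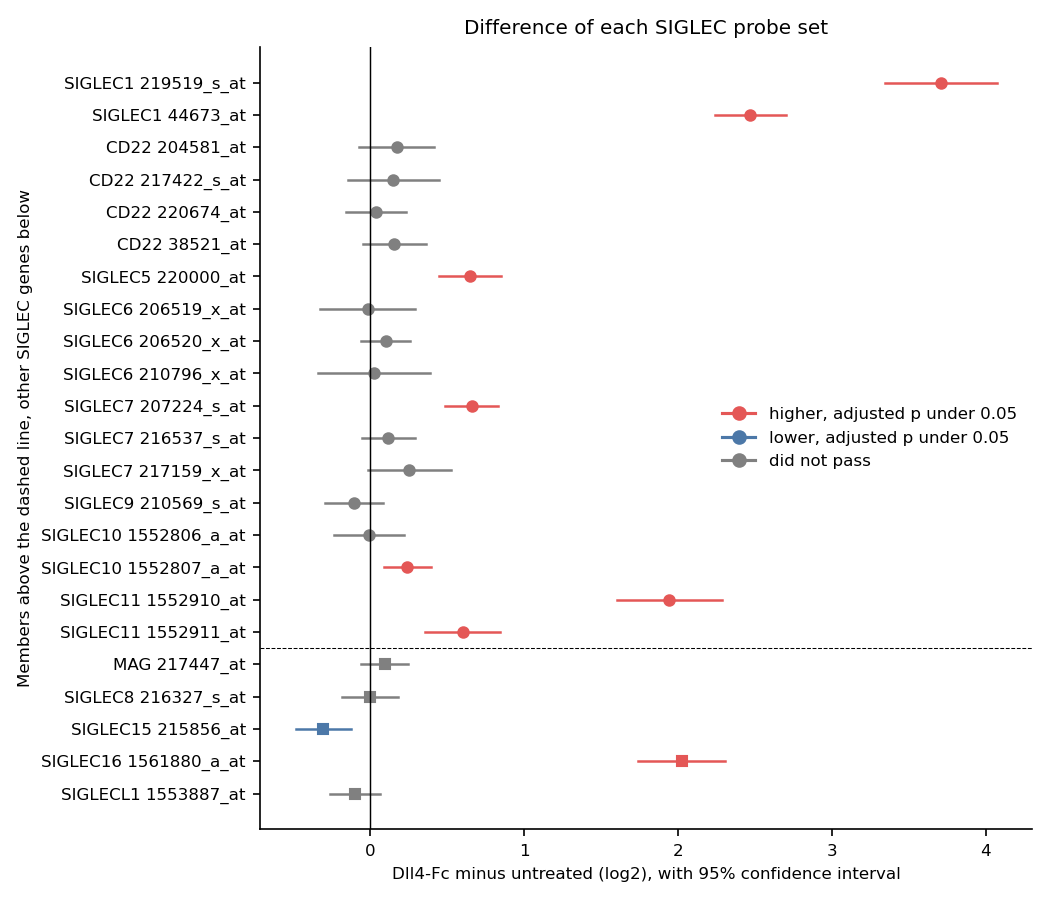
Difference between Dll4-Fc and untreated arrays (horizontal axis, log2) for the 18 member probe sets, shown as circles, and for the brightest probe set of 5 other SIGLEC family genes, shown as squares below the dashed line; lines are 95% confidence intervals. The 2 probe sets of SIGLEC1, 1552910_at of SIGLEC11 and SIGLEC16 lie beyond 1.9, and SIGLEC15 is the only one shown that passed the test with a difference below 0.

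Of the family genes outside the members, 5 of 7 were measured, and 1 rose and 1 fell in the gene-level test. Over all genes 11.6% rose and 15% fell. SIGLEC15, a DAP12-coupled member known from osteoclasts, fell from 6.99, 6.94 and 6.90 to 6.51, 6.63 and 6.77 (-0.31 ± 0.08, limma adjusted p = 0.0227). Its call was lost under 5 of 15 alternatives: the replicate block (adjusted p = 0.0637), the removal of untreated array 1 or 2 (0.0736 and 0.0668) and the removal of Dll4-Fc array 1 or 2 (0.0752 and 0.0693). SIGLEC8, known from eosinophils (0.00 ± 0.08), MAG, the SIGLEC of myelin (0.09 ± 0.07), and SIGLECL1 (-0.10 ± 0.07) did not pass, with values below the median of all probe sets in both groups.

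Among the genes through which SIGLECs signal, 6 of 17 measured rose and 2 fell, with a median difference of 0.14 (-0.01 over all genes). The shares over all genes were 11.6% risen and 15% fallen. TYROBP, which encodes DAP12, rose from 11.96, 11.90 and 11.88 to 12.41, 12.49 and 12.44 (0.53 ± 0.05, 1.45-fold). The kinase genes LYN (0.77 ± 0.06, 1.70-fold), FGR (0.83 ± 0.07, 1.78-fold) and FYN (1.21 ± 0.13, 2.31-fold), whose products phosphorylate such tail motifs, rose too. So did CBLB, a ubiquitin ligase (0.70 ± 0.10, 1.62-fold). CBL (0.19 ± 0.05), named after its values were seen, was the other that rose, and its call held under 5 of 15 alternatives. FYN gave 0.10 (limma adjusted p = 0.654) without shared probe sets, when 3 of 14 genes rose. The number that rose was 5 with the replicate block, median centring, the mean of probe sets or any 1 array left out. It was 7 without dim probe sets or with the log offset, 8 with the trended prior or array weights and 9 with cyclic loess. The phosphatase genes PTPN6 (SHP-1) and PTPN11 (SHP-2), named after their values were seen, differed by 0.14 ± 0.06 and 0.16 ± 0.05 and did not pass (limma adjusted p = 0.121 and 0.0513). The 2 that fell, also named after their values were seen, were PLCG2, a phospholipase of immune receptor signalling (-0.44 ± 0.06), and the adaptor gene GRB2 (-0.19 ± 0.05), whose call was lost under 10 of 15 alternatives. The number that fell was 1 with the replicate block, cyclic loess or median centring, and without untreated replicate 1 or 2 or Dll4-Fc replicate 1 or 2. It was 4 with the trended prior and 5 with array weights.

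Enzymes that attach sialic acid to glycans changed in both directions. Of 19 sialyltransferase genes 7 rose and 2 fell, with a median of 0.16, where 11.6% of all genes rose and 15% fell. ST3GAL5, which makes the ganglioside GM3, rose from 7.92, 7.82 and 7.71 to 9.19, 9.18 and 9.11 (1.34 ± 0.07, 2.54-fold). ST3GAL6 rose by 0.63 ± 0.06, ST6GAL1, which makes the sialic acid linkage that CD22 binds, by 0.48 ± 0.07, and ST6GALNAC4 by 0.45 ± 0.08. The genes that fell were ST3GAL3 (-0.54 ± 0.08) and ST3GAL4 (-0.34 ± 0.07), the latter named after its values were seen. ST6GAL1 gave 0.13 (limma adjusted p = 0.225) as the mean of its probe sets, and ST6GALNAC4 gave 0.02 (limma adjusted p = 0.91) without shared probe sets, when 4 of 18 genes rose. The 7 include ST3GAL2 (0.25 ± 0.08), named after its values were seen, whose call held under 7 of 15 alternatives. In the test over all probe sets 0 of its 5 probe sets rose. ST8SIA4, also named after its values were seen, did not pass on its brightest probe set, while 2 of its 5 rose.

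NEU1, the lysosomal sialidase, rose from 9.16, 9.13 and 8.98 to 10.19, 10.32 and 10.16 (1.13 ± 0.07, 2.19-fold, limma adjusted p = 3.85e-05), with no overlap. NEU3, the plasma membrane sialidase, fell by 0.40 ± 0.06 on its brightest probe set and differed by -0.06 (limma adjusted p = 0.504) as the mean of 4 probe sets. The other 2, NEU2 and NEU4, did not pass, so 1 of 4 sialidase genes rose and 1 fell, with a median of 0.07. Among all genes 11.6% rose and 15% fell.

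Of 10 genes that make, move, modify or break down free sialic acid, 2 rose and 1 fell, with a median of -0.08. Over all genes 11.6% rose and 15% fell. NPL, the lyase that cleaves sialic acid, rose by 0.92 ± 0.08 (1.89-fold) and RENBP, an epimerase that acts on its precursor sugar, by 0.40 ± 0.09 (1.32-fold). CASD1, which acetylates sialic acid, fell by 0.33 ± 0.09 (limma adjusted p = 0.0315). The number that rose was 1 without shared probe sets or without untreated replicate 2, when RENBP did not pass (adjusted p = 0.0508). CASD1 did not pass with the replicate block (adjusted p = 0.0832), as the mean of its probe sets (0.0596), without untreated replicate 1 or 2 (0.0854 and 0.104) or without Dll4-Fc replicate 1 or 2 (0.113 and 0.106). The number that fell was 0 in those cases, 2 without untreated replicate 3, without dim probe sets, with the trended prior or with the log offset, and 3 with array weights. The synthesis genes GNE, NANS, NANP and CMAS, named after their values were seen, differed by -0.13, 0.11, -0.17 and -0.13 and did not pass.

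**Figure D3:**
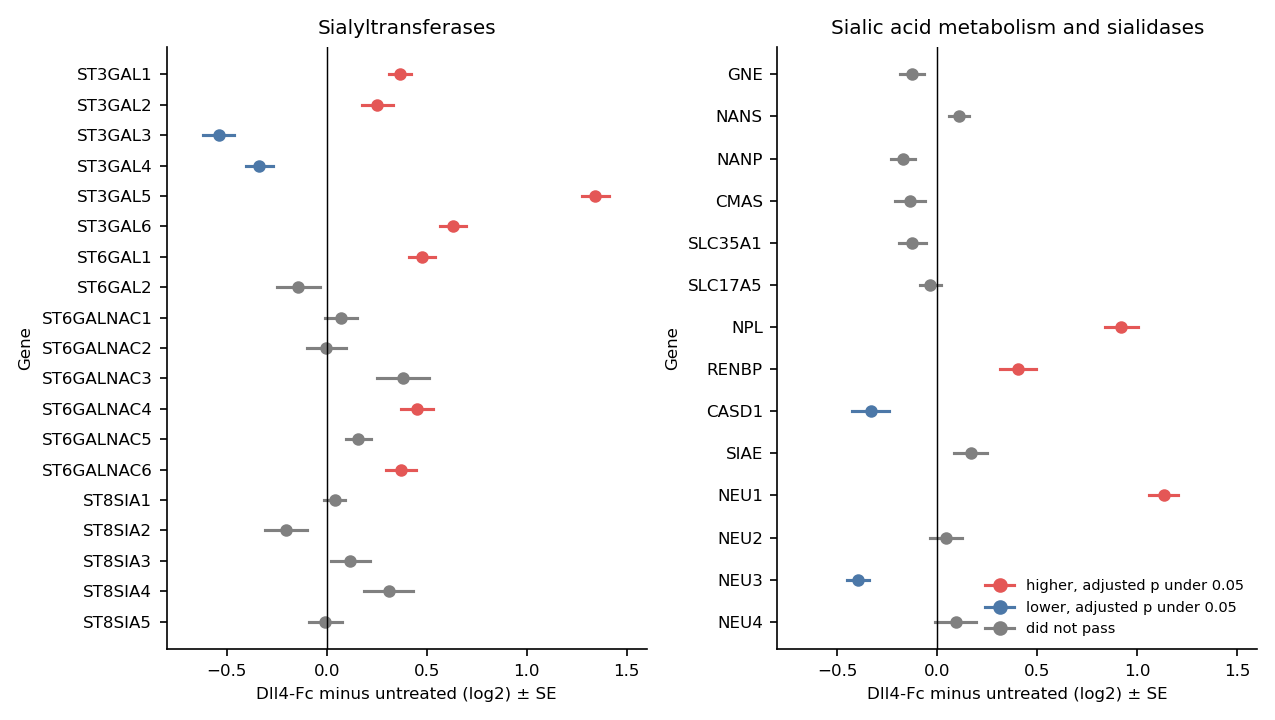
Difference between Dll4-Fc and untreated arrays (horizontal axes, log2, ± SE, n = 3 arrays per group) for the brightest probe set of 19 sialyltransferase genes (left) and of 10 sialic acid metabolism and 4 sialidase genes (right). ST3GAL5 at 1.34 and NEU1 at 1.13 lie farthest right, and ST3GAL3 at -0.54 farthest left.

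Genes of glycoproteins on which SIGLECs find sialic acid also went both ways: 6 of 12 rose and 3 fell, with a median of 0.13. Among all genes 11.6% rose and 15% fell. CD52, a short glycoprotein that SIGLEC10 binds, rose from 7.19, 7.39 and 6.97 to 12.05, 12.01 and 12.01 (4.84 ± 0.10, 28.6-fold, limma adjusted p = 1.98e-07). LGALS3BP, a secreted glycoprotein, rose by 1.74 ± 0.12 (3.34-fold), the lectin gene CLEC10A by 1.29 ± 0.13 (2.44-fold), from below the median of all probe sets, and the checkpoint gene VSIR by 0.66 ± 0.06 (1.58-fold). SELPLG, which encodes the selectin ligand PSGL-1, fell by 0.93 ± 0.07. SPN (CD43), named after its values were seen, fell by 0.54 ± 0.09, and so did SEMA4D (-0.22 ± 0.07), whose call was lost under 10 of 15 alternatives. The number that fell was 1 of 8 without shared probe sets. CD24, the other known partner of SIGLEC10, also named after its values were seen, did not pass (-0.16 ± 0.08) and was below the median of all probe sets in both groups.

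Of 11 measured markers of the monocyte lineage 6 rose and 3 fell, where 11.6% of all genes rose and 15% fell. FCGR1A was below the median of all probe sets in both groups, at 4.53 and 4.72. LYZ (lysozyme, 2.00 ± 0.08), CSF1R (1.75 ± 0.06), ITGAM (CD11b, 1.71 ± 0.09) and FCER1G (1.63 ± 0.06) were among those that rose, and the granule protein gene AZU1 fell by 1.30 ± 0.09. The others that fell, MPO (-0.79) and CEBPA (-0.21), and FCGR1A and CD4, which did not pass, were named after their values were seen. The CEBPA call held under 7 of 15 alternatives. The number that fell was 2 with the replicate block, with median centring or without any 1 array other than untreated replicate 3. ITGAM differed by -0.12 (limma adjusted p = 0.553) without shared probe sets, when 1 of 9 markers fell. The log2 of the summed intensity of the 11 ran from 14.6 to 14.7 in untreated and from 15.3 to 15.4 on Dll4-Fc arrays. That sum is weighted to bright probe sets, such as those of LYZ (11.87 to 13.87), FCER1G (11.86 to 13.48) and AZU1 (12.97 to 11.67). The part of these markers in the SIGLEC rises was not tested.

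CD22 and SIGLEC7 are best known from lymphocytes, so lymphocyte markers were read beside them. Over all genes 11.6% rose and 15% fell. For B cells 2 of 7 measured markers rose and 0 fell: BLNK, an adaptor that macrophages also use (2.44 ± 0.11), and PAX5 (0.60 ± 0.10). The log2 of the summed intensity of the 7 went from between 8.87 and 8.90 to between 9.69 and 9.83. Such a sum is weighted to bright probe sets, here those of BLNK (6.21 to 8.65) and PAX5 (7.24 to 7.84) among others. MS4A1 (CD20) was below the median of all probe sets in both groups, at 4.22 ± 0.12 and 4.03 ± 0.16, and CD79A and CD79B did not pass; the last 3 were named after their values were seen. Without shared probe sets 1 of 5 B cell markers rose. For natural killer cells 1 of 8 rose, GNLY (granulysin, 5.30 ± 0.12, 39.4-fold), and the summed value went from between 9.03 and 9.13 to between 10.8 and 10.9. The mean of GNLY alone went from 5.05 to 10.35, and the other 7 markers did not pass. Without untreated replicate 3, with cyclic loess or with array weights 2 rose. KLRD1 (CD94), named after its values were seen, was below the median of all probe sets in both groups, at 4.66 and 4.65. For T cells 0 of 7 passed limma's test (8.05 to 8.15 summed in untreated and 8.04 to 8.16 on Dll4-Fc arrays), and 0 had an unadjusted p under 0.05, but 1 passed without untreated replicate 2. Of 6 eosinophil and basophil markers 1 rose, PRG2 (0.30 ± 0.06), with a mean below the median of all probe sets in both groups (summed 7.63 to 7.82 and 7.66 to 7.79). Without shared probe sets 0 of 4 passed. Of 8 fibroblast and stromal markers 0 passed on the brightest probe set (9.01 to 9.15 and 9.09 to 9.19). The 2 with an unadjusted p under 0.05, named after their values were seen, were DCN and FAP. With array weights or the mean of probe sets 1 passed. Of the 5 probe sets of COL1A1, also named after its values were seen, 1 rose in the test over all probe sets. The part of these genes in the CD22 and SIGLEC7 values was not tested.

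**Figure D4:**
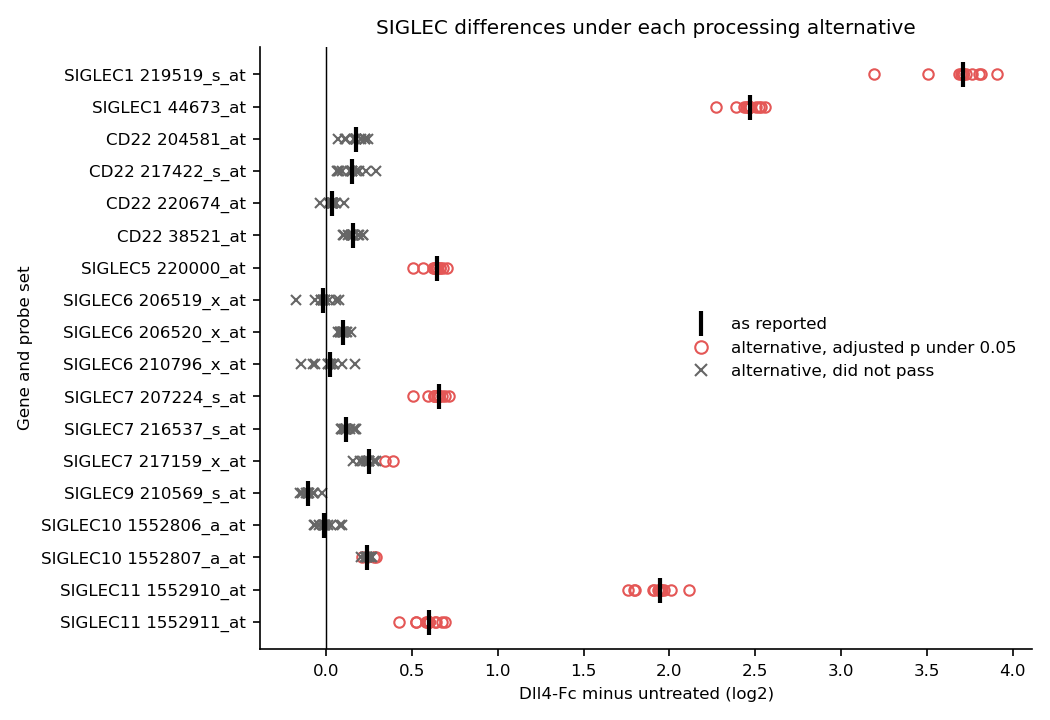
Difference between Dll4-Fc and untreated arrays (horizontal axis, log2) of each SIGLEC probe set as reported (black bar) and under each of 12 to 14 processing alternatives, as red circles where limma's adjusted p was under 0.05 and grey crosses where it was not. Both SIGLEC1 probe sets, SIGLEC5, SIGLEC7 207224_s_at and both SIGLEC11 probe sets are red throughout, and SIGLEC10 1552807_a_at is red in 4 of 13.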

How the data were processed

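Expression was measured on Affymetrix Human Genome U133 Plus 2.0 arrays from 5 ng of amplified total RNA per sample, 1 array each. The authors deposited 1 intensity per probe set and array, made with RMA per the submitters' processing notes, on a linear scale; its version was not given in those notes. RMA sets all arrays to one distribution, which hides shifts common to all transcripts. Precision is limited by having 3 arrays per group, with a median SE of 0.09. Intensities of 54613 probe sets (62 controls left out) were log2 transformed, then fitted by group in limma 3.58.1 under R 4.3.3 (lmFit and eBayes, 2-sided, 4 residual degrees of freedom), with Benjamini-Hochberg adjustment over all probe sets and a threshold of 0.05. A gene-level fit took the brightest probe set of each of 19775 genes and served the lists. Genes were named from the GEO platform annotation, which can be old: 41097 probe sets had 1 symbol, 1801 several and 11777 none. Probe sets whose identifier ends in _s_at, _x_at or _a_at are called shared between transcripts. The code was tested on simulated data.

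The members and the 13 gene lists (other SIGLEC genes, sialic acid synthesis, sialyltransferases, sialidases, signalling partners, counter-receptors, Notch targets and 6 marker lists) were chosen with earlier results of these data known. All members were named, and in each list all called genes up to 5, else the 5 with the largest difference among those without overlap between groups, all SIGLEC family and Notch target genes, and the 3 genes most correlated with the member that changed most. The alternatives were a replicate block, cyclic loess, median centring, leaving out dim or shared probe sets, a trended robust prior, array weights, a log offset of 16, the mean of probe sets and leaving out each array.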

Additional observations from a re-analysis of the deposited data

How the results depend on the processing

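Without shared probe sets 4 of the remaining 7 SIGLEC probe sets rose in place of 7 of 18, because fewer were tested. Under the other alternatives the number was 6 to 8, and 6 or 7 when 1 array was left out; 0 fell under any. The number of SIGLEC genes that rose was 3 to 5, and 3 or 4 when 1 array was left out. The called differences of SIGLEC1, SIGLEC5, SIGLEC7 207224_s_at and SIGLEC11 kept direction and call under every alternative that tested them. The replicate numbers did not pair the arrays: deviations of same-numbered arrays correlated at -0.02, -0.14 and -0.13, and 0 of 6 arrays correlated best with its own number. With the replicate block 6 of 18 probe sets and 3 of 8 genes rose, without SIGLEC10. ITGAM was read from its other probe set when shared ones were left out. The difference then had the opposite sign, at -0.12, and did not pass (limma adjusted p = 0.553). Why its 2 probe sets differ was not tested. Of 47 called genes of the other lists 33 passed under every alternative that tested them, which for some left out the one without shared or without dim probe sets. Over all probe sets 5059 fell, and 3358 or 2977 without untreated replicate 1 or 2, 2927 or 2906 without Dll4-Fc replicate 1 or 2, and 3121 of 37394 without shared probe sets. Of the 18 SIGLEC probe sets 8 were below the median of all probe sets in both groups, which limits what can be read from them.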
